A study of Mus musculus with 6 samples.

Results

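Secreted matrix proteoglycans are core proteins that carry glycosaminoglycan chains and are laid down in the space around cells. The 10 genes described here were chosen by name, as the rows of the deposited table whose symbol is one of 10 core protein genes, out of 20323 gene rows. They are the small leucine-rich proteoglycans DCN (decorin), BGN (biglycan), ASPN (asporin), LUM (lumican), FMOD (fibromodulin) and PRELP, the large hyaluronan-binding cores VCAN (versican) and ACAN (aggrecan), and the basement membrane cores HSPG2 (perlecan) and AGRN (agrin). Each symbol had 1 row. The RNA-seq libraries came from RFB, a kidney fibroblast line as the labels name it. One group of 3 libraries is labelled TGF-β, a cytokine that drives fibroblasts toward matrix production. The other 3 are labelled TGF-β plus CXCL10, a chemokine, so by these labels TGF-β is common to all 6 libraries. Titles of the TGF-β group read NC with the replicate number. They neither spell out NC nor name TGF-β. The CXCL10 titles state 5 µl, with no concentration. Mouse is the labelled organism, but all 20323 rows have human Ensembl identifiers, so each value was counted on human gene models. The series text speaks of a SUV39H1 knockdown, which no sample label names.

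As background, the small leucine-rich proteoglycans bind collagen and tune how its fibrils assemble, and decorin and biglycan also bind TGF-β. Versican and aggrecan attach through their N-terminal domain to hyaluronan and form hydrated pericellular coats. Perlecan and agrin carry mainly heparan sulfate and link basement membranes to cell surface receptors. In fibrotic kidney, interstitial fibroblasts are a main source of such matrix.

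Libraries held 12838106 to 15587409 counts, and the 10 genes together took 0.306% to 0.331% of them. TGF-β replicate 1 stood apart from the other TGF-β libraries, with a chi-square statistic per degree of freedom of 17.4 and 16.2 against them, while replicates 2 and 3 of that group differed by 3.07. CXCL10 replicate 1 stood apart likewise, at 8.81 and 8.44, against 2.79 between replicates 2 and 3. Markers of the labelled cell type were expressed: all 9 fibroblast marker genes had counts, and their summed level was 54133 to 61489 CPM (the count relative to the library total, with libraries scaled by the TMM method) in the TGF-β libraries and 51790 to 56258 CPM in the CXCL10 libraries. Most of that sum was COL1A1, at 32291 to 38434 CPM and 29923 to 33812 CPM. Of 11 kidney tubule markers, 5 were at 0 counts in all libraries, among them LRP2, UMOD and AQP2, and the list summed to at most 10.7 CPM. Of 8 chondrocyte markers COL9A1 and CNMD were at 0, COL2A1 had 2 counts in all, and the sums were 31.1 to 37.1 CPM and 30.0 to 32.7 CPM. Sums for 7 endothelial markers were 51.7 to 54.7 CPM and 48.9 to 52.7 CPM, nearly all of it TEK, with EMCN at 0. For 8 leukocyte markers they were 42.5 to 47.9 CPM and 42.3 to 48.5 CPM, most of it CD68, with CD3E and MS4A1 at 0. The 7 pericyte or mesangial markers with a row summed to 424 to 533 CPM and 354 to 459 CPM, with ITGA8 at 0. Of these 7, 5 had enough counts to be tested, and CSPG4 alone was at 275 to 365 CPM and 236 to 322 CPM. The 5 podocyte markers summed to 318 to 438 CPM and 443 to 505 CPM, from SYNPO and PODXL, with NPHS1 at 0. The part of these shifts in the results that follow was not tested.

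The fibroblasts expressed 5 of the 10 cores strongly and 2 weakly, and 3 barely or not at all. Levels of different genes are compared in FPKM, which takes transcript length into account. LUM stood at 235 ± 21.5 FPKM with TGF-β and 183 ± 8.19 FPKM with CXCL10 added (SD, n = 3 per group, as in all values that follow), and DCN at 229 ± 19.5 FPKM and then 197, 182 and 194 FPKM in the CXCL10 libraries. The order of these genes changed between libraries, with a ratio of LUM to DCN between 0.884 and 1.05, so that they did not differ beyond their spread. The next tier held HSPG2 at 82.7 ± 8.21 FPKM and 77.3 ± 7.47 FPKM, VCAN at 62.1 ± 12.4 FPKM and 84.7 ± 10.1 FPKM, and AGRN at 55.5 ± 3.40 FPKM and 57.2 ± 2.46 FPKM. HSPG2 was above AGRN in every library, by a ratio of 1.23 to 1.60, while VCAN took the third place in replicate 1 of both groups and the fifth in replicates 2 and 3 of the TGF-β group. FMOD, at 5.45 ± 1.24 FPKM and 4.22 ± 0.81 FPKM, and BGN, at 4.36 ± 1.38 FPKM and 5.23 ± 0.29 FPKM, lay far below the rest. These genes overlapped each other in the TGF-β group, while BGN was above FMOD in all 3 CXCL10 libraries. DCN, which like BGN is a class I member of the leucine-rich family, was thus expressed many times above it: the ratio of BGN to DCN was 0.0124 to 0.0282.

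**Figure D1:**
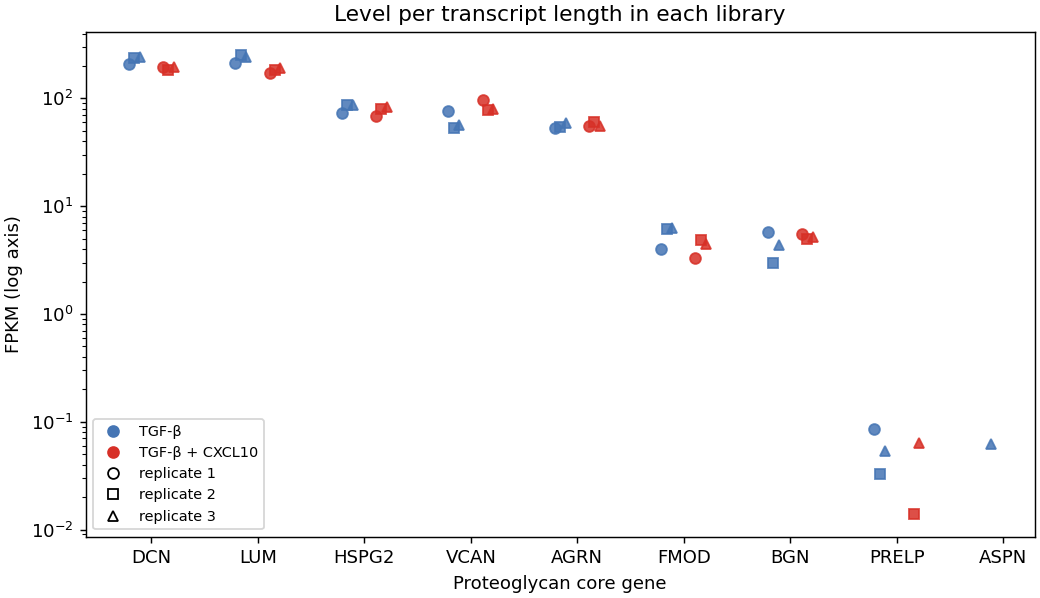
FPKM on a log axis for each core gene (x axis) in each library, blue for TGF-β and red for TGF-β with CXCL10, with 1 symbol per replicate number. DCN and LUM lie at 174 to 252 FPKM, HSPG2, VCAN and AGRN at 52.8 to 96.2 FPKM and FMOD and BGN at 2.97 to 6.24 FPKM; values of 0 cannot be drawn on this axis, and ACAN, at 0 throughout, is left out.

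The cartilage proteoglycan ACAN was not counted in any library (0 counts), and by counting error alone its level could be as high as 0.192 to 0.234 CPM, depending on the library. ASPN, a class I leucine-rich core of cartilage and periodontal tissue, had 2 counts in TGF-β replicate 3 and 0 elsewhere. PRELP, which anchors basement membrane to connective tissue, had 14 counts over the TGF-β libraries and 6 over the CXCL10 libraries, with at most 7 in any library. A difference between treatments in these 3 genes was not detectable at this depth, and none of them passed the filter on low counts. The other 7 genes passed it and were tested among 11970 genes.

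As labelled, the design asks how added CXCL10 alters proteoglycan genes in fibroblasts that already receive TGF-β. In the CXCL10 libraries the leading small leucine-rich proteoglycans were lower and versican was higher. The principal edgeR fit, without pairing, called 0% of genes (smallest adjusted p = 0.161). In an alternative fit same-numbered libraries were treated as pairs. There LUM and DCN fell by about 0.32 and 0.25 on the log2 scale and VCAN rose by 0.47. FMOD, BGN, HSPG2 and AGRN did not pass the threshold. Thus 3 of 7 tested cores were called in the paired fit at an adjusted p under 0.05, beside 17.7% of all genes tested. Of these 1 was higher beside 9.71% and 2 lower beside 8.04%. In the principal fit 3 of the 7 cores, LUM, DCN and VCAN, had an unadjusted p under 0.05 beside 20.5% of all genes. Those genes were also the 3 of 7 whose groups did not overlap in CPM, beside 22.3% of all genes. DESeq2 without pairing called LUM (adjusted p = 0.0168) and VCAN (0.0264) and not DCN (0.0596), beside 2.8% of all genes. In the authors' deposited table LUM (adjusted p = 0.0191) and VCAN (0.0388) passed and DCN (0.0706) did not, beside 1.33% of the rows with a count. With library totals in place of TMM scaling the paired calls over all genes turned from 1162 higher and 962 lower to 877 higher and 1359 lower, and LUM, DCN and VCAN were called in the same directions.

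**Figure D2:**
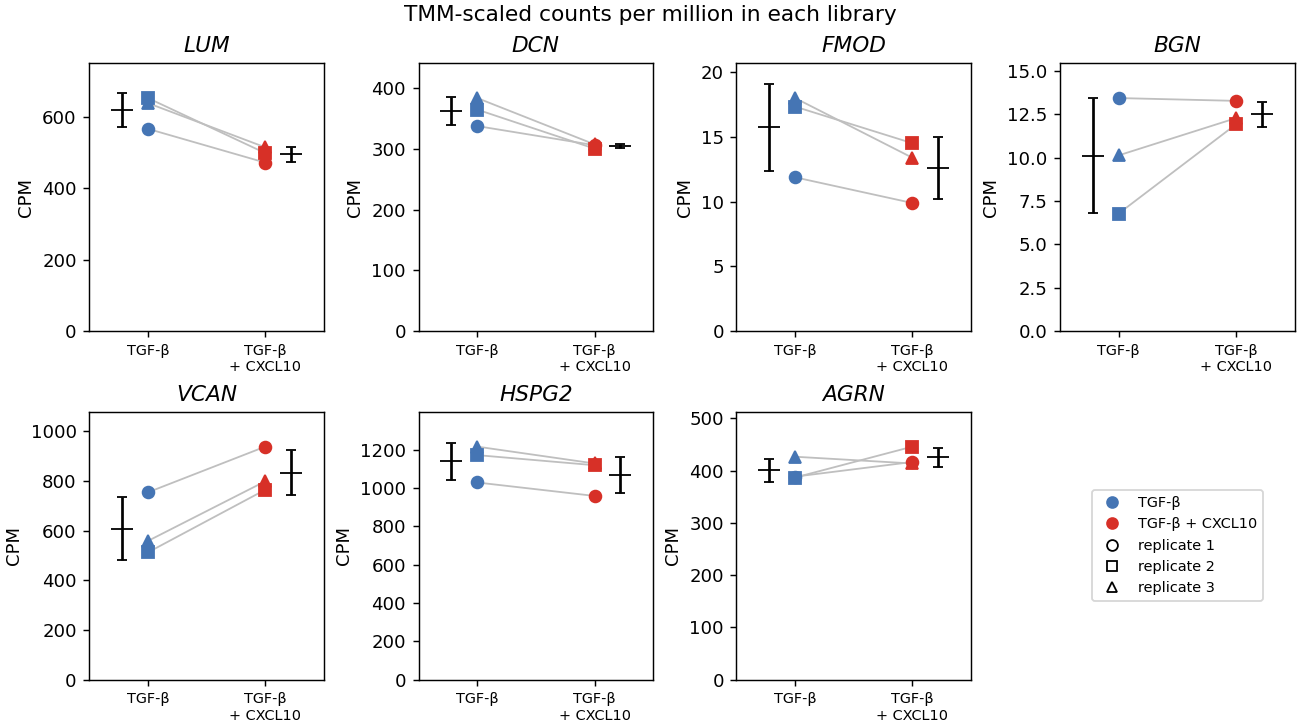
TMM-scaled CPM (y axes, each from 0) of the 7 tested genes in each library by treatment, with grey lines joining libraries of the same replicate number and black marks for the mean and SD of 3 libraries. All 3 lines fall for LUM, DCN, FMOD and HSPG2 and rise for VCAN, and the groups do not overlap for LUM, DCN and VCAN.

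LUM (ENSG00000139329) encodes lumican, a keratan sulfate core that limits the thickness of collagen fibrils. It stood at 566, 652 and 638 CPM in TGF-β replicates 1 to 3 and at 472, 498 and 515 CPM with CXCL10. Every CXCL10 library was below every TGF-β library, and in both groups replicate 1 was the lowest. The log2 change was -0.32 (SE 0.05, adjusted p = 0.000361) in the paired fit and -0.32 (SE 0.07, adjusted p = 0.161) without pairing. The 3 pairs differed by -0.26, -0.39 and -0.31. Within the TGF-β group, replicate 1 differed from the mean of the others by -0.19 on the same scale.

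DCN (ENSG00000011465), the chondroitin or dermatan sulfate core that binds collagen and TGF-β, was measured at 337, 364 and 383 CPM with TGF-β. With CXCL10 it was at 306, 300 and 307 CPM. The CXCL10 libraries lay close together and below all TGF-β libraries, of which replicate 1 was the nearest. The paired log2 change was -0.25 (SE 0.05, adjusted p = 0.00411), and the pairs differed by -0.14, -0.28 and -0.32. The paired call was lost without both libraries of replicate 3, where the change was -0.20 (adjusted p = 0.114). Within the TGF-β group, replicate 1 differed from the others by -0.15.

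FMOD (ENSG00000122176), a keratan sulfate core that competes with lumican for collagen, held 11.9, 17.4 and 18.0 CPM with TGF-β and 9.91, 14.5 and 13.4 CPM with CXCL10. Each CXCL10 library was below the TGF-β library of its number, but the groups overlapped because TGF-β replicate 1 was below CXCL10 replicates 2 and 3. The paired log2 difference was -0.32 (SE 0.12, adjusted p = 0.0820), with a wider error than that of LUM. The 95% interval of the unpaired difference ran from -0.75 to 0.10, and the difference itself was -0.49 without TGF-β replicate 1 and -0.17 without CXCL10 replicate 1.

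BGN (ENSG00000182492), the class I relative of decorin, went the other way in 2 of 3 pairs. Its levels were 13.4, 6.78 and 10.1 CPM with TGF-β and 13.3, 11.9 and 12.3 CPM with CXCL10. TGF-β replicate 1 was the highest of all 6 libraries, and the others of that group were below every CXCL10 library. The paired log2 difference was 0.34 (SE 0.16, adjusted p = 0.175). In the unpaired fit without TGF-β replicate 1 the change was 0.58 (adjusted p = 0.0490), so that 4 of the 7 cores were called, beside 19.3% of all genes in that fit. BGN was also called without both libraries of replicate 1 in the paired fit, at 0.54 (adjusted p = 0.0234). Without TGF-β replicate 2 the unpaired difference was 0.083 (adjusted p = 0.874), and without both libraries of replicate 2 the paired one was 0.12 (adjusted p = 0.746).

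VCAN (ENSG00000038427) encodes versican, the large chondroitin sulfate core of provisional and fibrotic matrix. It was at 754, 513 and 559 CPM with TGF-β and at 938, 765 and 799 CPM with CXCL10. The groups did not overlap, but TGF-β replicate 1 came within a small margin of the lowest CXCL10 library. Replicate 1 was the highest of its group under both treatments. The paired log2 change was 0.47 (SE 0.05, adjusted p = 6.38e-05), a rise of 38.4%, with pairs at 0.31, 0.58 and 0.52. Without pairing it was 0.45 (SE 0.13, adjusted p = 0.161). Within the TGF-β group alone replicate 1 differed from the mean of the others by 0.50, which is about the size of the change with CXCL10. Without TGF-β replicate 1 the unpaired change was 0.64 (adjusted p = 0.000783).

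Neither basement membrane core was called with TMM scaling. HSPG2 (ENSG00000142798) was the most counted of the 10 genes, with 1029, 1172 and 1216 CPM with TGF-β and 959, 1119 and 1129 CPM with CXCL10. Replicate 1 was the lowest in both groups, and the groups overlapped. All 3 pairs were lower, and the paired fit put the log2 difference at -0.09 (SE 0.04, adjusted p = 0.150). Scaled by library totals it passed in the paired fit, at -0.14 (adjusted p = 0.0235). AGRN (ENSG00000188157), whose neural forms organise the neuromuscular synapse, held 388, 387 and 427 CPM with TGF-β and 416, 446 and 414 CPM with CXCL10. Its paired log2 difference was 0.09 (SE 0.05, adjusted p = 0.293). The 95% intervals of the unpaired differences ran from -0.28 to 0.09 for HSPG2 and from -0.06 to 0.23 for AGRN, on the log2 scale. The unpaired difference of HSPG2 was -0.16 without TGF-β replicate 1 and -0.02 without CXCL10 replicate 1, and that of AGRN was 0.14 without TGF-β replicate 3 and 0.05 without CXCL10 replicate 2.

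**Figure D3:**
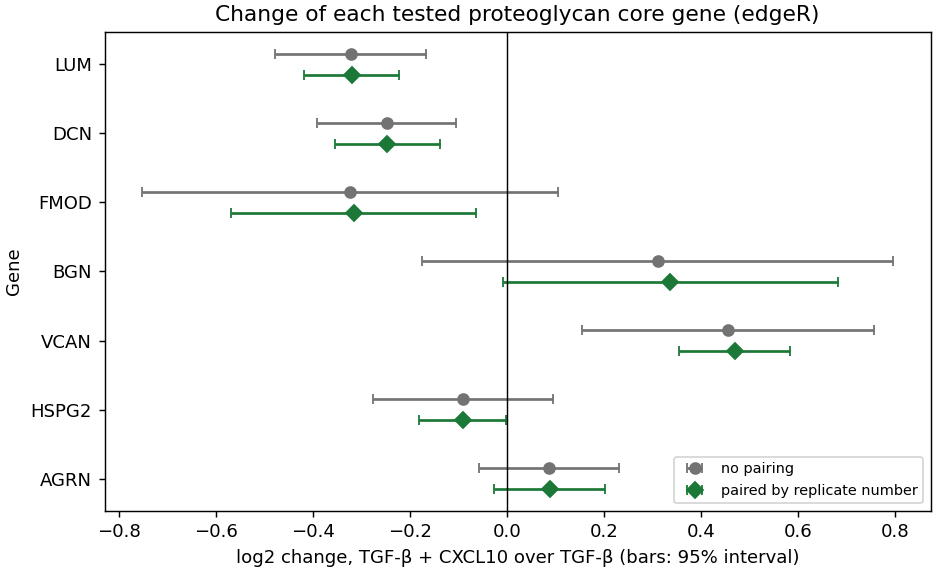
Log2 change with CXCL10 (x axis) of each tested core gene, with 95% intervals not adjusted for the number of genes, without pairing (grey circles) and paired by replicate number (green diamonds). The intervals of LUM, DCN and VCAN lie on 1 side of 0 in both fits; those of FMOD and HSPG2 do so only with the pairing, and neither gene passed after adjustment.

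The makeup of the proteoglycan transcripts differed accordingly. Of the summed FPKM of the 10 genes, the small leucine-rich cores made up 67.9%, 72.0% and 70.9% in the TGF-β libraries and 63.2%, 63.3% and 64.3% in the CXCL10 libraries. The hyaluronan-binding cores, all of it VCAN, made up 12.1%, 7.66% and 8.11% with TGF-β and 16.04%, 13.1% and 13.1% with CXCL10. The share of the basement membrane cores was 20.0% to 21.0% and 20.8% to 23.6%, and these groups overlapped. The ratio of VCAN to DCN in FPKM was 0.369, 0.223 and 0.235 with TGF-β and 0.490, 0.427 and 0.413 with CXCL10. Both groups were apart in this ratio, and replicate 1 was the highest of each. These shares and ratios restate the levels above and were not tested.

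Among the 7 tested cores, DCN and LUM followed each other most closely over the 6 libraries. The measure is the root mean square difference of log2 CPM after each gene's mean is subtracted, which was 0.06 for this pair. It was 0.11 for DCN with HSPG2, 0.13 for LUM with HSPG2, 0.13 for HSPG2 with AGRN and 0.16 for VCAN with BGN. The distance of VCAN from LUM was 0.47 and that from DCN was 0.43. Of 9704 other genes that averaged 5 CPM or more, the nearest to DCN were VPS13A and PMM1, to LUM were PPCS and ELP3, and to VCAN were DPP9 and TRNP1, at 0.01 to 0.03. LRP1 and PLXNB2 were nearest to HSPG2 and ILVBL and TSC22D4 to AGRN, at 0.02 to 0.03. BGN was nearest to SHROOM1 and MYL5 and FMOD to NHEJ1 and DENND5B, at 0.05 to 0.09. The median distance to all such genes was 0.15 to 0.35. All these values share the same 6 libraries, with their treatment and the shift of replicate 1, and serve as a description.

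Versican works together with hyaluronan, and genes of that system were measured next. Calls in the lists that follow are those of the paired fit over all genes, whose median change was -0.01. Over all genes tested that fit called 9.71% higher and 8.04% lower, the shares to set beside each list. In the principal fit, without pairing, 0 genes of any list were called. Of 11 tested genes for hyaluronan synthesis, turnover and link proteins 4 rose and 0 fell, with a list median of 0.37. HAS2, a hyaluronan synthase, rose from 15.4 ± 7.57 to 31.2 ± 13.3 CPM (paired log2 change of 1.03, SE 0.13, adjusted p = 0.000143). The hyaluronidase CEMIP2 rose by 0.40 (SE 0.05) and TNFAIP6, which transfers heavy chains onto hyaluronan, by 0.50 (SE 0.11). CEMIP, the other one of the 4, was at 0.97 and was named after its value was seen. TGF-β replicate 1 was the highest of its group for HAS2, at 23.7 CPM against 13.8 and 8.86, and above CXCL10 replicate 2 at 22.1. The groups of TNFAIP6 and CEMIP overlapped likewise, and those of CEMIP2 did not.

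Among 11 tested proteoglycans outside the 10 cores, the syndecans and the glypicans, 4 rose and 1 fell, with a median of 0.15. CD44, the main hyaluronan receptor and a part-time proteoglycan, stood at 1029 ± 263 CPM and 1478 ± 232 CPM (log2 change 0.54, SE 0.05, adjusted p = 1.47e-05). Its groups overlapped, with TGF-β replicate 1 at 1333 CPM and CXCL10 replicate 2 at 1324 CPM. SPOCK1, a testican, rose by 0.96 (SE 0.16) and NRP1, a semaphorin and VEGF coreceptor, by 0.50 (SE 0.05). Their groups did not overlap, but TGF-β replicate 1 came close to the lowest CXCL10 library. These were at 30.2 and 31.8 CPM for SPOCK1 and at 156 and 157 CPM for NRP1. The faller, named after its value was seen, was CSPG4 at -0.25, which is also 1 of the pericyte markers above. Its groups overlapped. Of the other small leucine-rich genes 4 were tested and 6 of 12 had 0 counts in all libraries. ECM2 fell from 11.2 ± 3.92 to 5.40 ± 2.78 CPM (a paired change of -1.09 on the log2 scale, SE 0.18, adjusted p = 0.000948) while PODNL1 changed by -0.30 (adjusted p = 0.0420). The groups overlapped for ECM2 and for PODNL1, with ECM2 at 6.69 CPM in TGF-β replicate 1 and 7.98 CPM in CXCL10 replicate 2. TSKU, a secreted leucine-rich morphogen modulator, was at -0.07 (adjusted p = 0.425). The median of the 4 was -0.19.

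Enzymes that begin and build the chains of versican and decorin were higher where they changed, with 1 exception. Of 7 genes for the linker between core protein and chain 3 rose and 0 fell (median 0.23). XYLT1, the xylosyltransferase that starts the linker, held 149, 91.4 and 90.7 CPM with TGF-β and 194, 168 and 165 CPM with CXCL10. Its groups did not overlap, and the paired log2 change was 0.70 (SE 0.08, adjusted p = 7.93e-05). The linker kinase FAM20B rose by 0.31 and the galactosyltransferase B4GALT7 by 0.34. Of 16 chondroitin and dermatan sulfate genes 5 rose and 1 fell (median 0.17). CSGALNACT2 and CSGALNACT1, which commit the linker to chondroitin sulfate, rose by 0.71 (SE 0.07) and 0.60 (SE 0.11), and the sulfotransferase CHST3 by 0.33 (SE 0.05). The one that fell was UST at -1.07, a uronyl sulfotransferase with 3.51 and 1.64 CPM on average, named after its value was seen. For CSGALNACT2, TGF-β replicate 1 was at 90.9 CPM, against 47.0 and 54.4 in its group and 85.8 in the lowest CXCL10 library. The groups of CSGALNACT1 overlapped too.

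Heparan sulfate genes, which serve perlecan and agrin, went both ways. Of 14 tested rows 3 rose and 2 fell (median 0.10). HS3ST3A1, a sulfotransferase, rose by 0.97 (SE 0.14), from 17.5 ± 7.57 CPM to 33.4 ± 4.68 CPM, and the chain polymerase EXT1 by 0.22 (SE 0.05). NDST1, which begins chain sulfation, was lower by a log2 change of -0.17 (SE 0.05, adjusted p = 0.0257), with overlapping groups. Of 6 keratan sulfate genes, relevant to lumican and fibromodulin, CHST2 alone was called, at 1.16 (SE 0.23) and a low level of 5.81 ± 4.30 CPM and 11.9 ± 2.70 CPM. B3GNT2 at 0.16 (adjusted p = 0.299) and B4GALT4 at 0.10 (0.289) were not called, and the median was 0.39. That median rests in part on CHST1 (0.61, SE 0.51) and CHST6 (0.85, SE 0.39), which averaged 0.87 and 1.56 CPM and were not called. B4GALT1, with a mean of 266 CPM, was at 0.03.

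Of 17 tested rows for the supply of nucleotide sugars and sulfate 6 rose and 0 fell (median 0.22). UGDH, which makes the glucuronic acid donor used for every chain type but keratan sulfate, rose from 119 ± 21.2 to 156 ± 13.8 CPM (paired log2 change of 0.40, SE 0.06, adjusted p = 0.000546). GFPT2, of the hexosamine pathway, rose by 0.59 (SE 0.06) and the Golgi phosphatase BPNT2 by 0.33 (SE 0.05). For all 3 genes TGF-β replicate 1 was the highest of its group, at 143, 162 and 201 CPM, against at most 107, 97.8 and 166 CPM in the others. The groups of UGDH and GFPT2 overlapped: CXCL10 replicate 2 was at 142 CPM for UGDH and at 145 CPM for GFPT2. Those of BPNT2 did not.

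**Figure D4:**
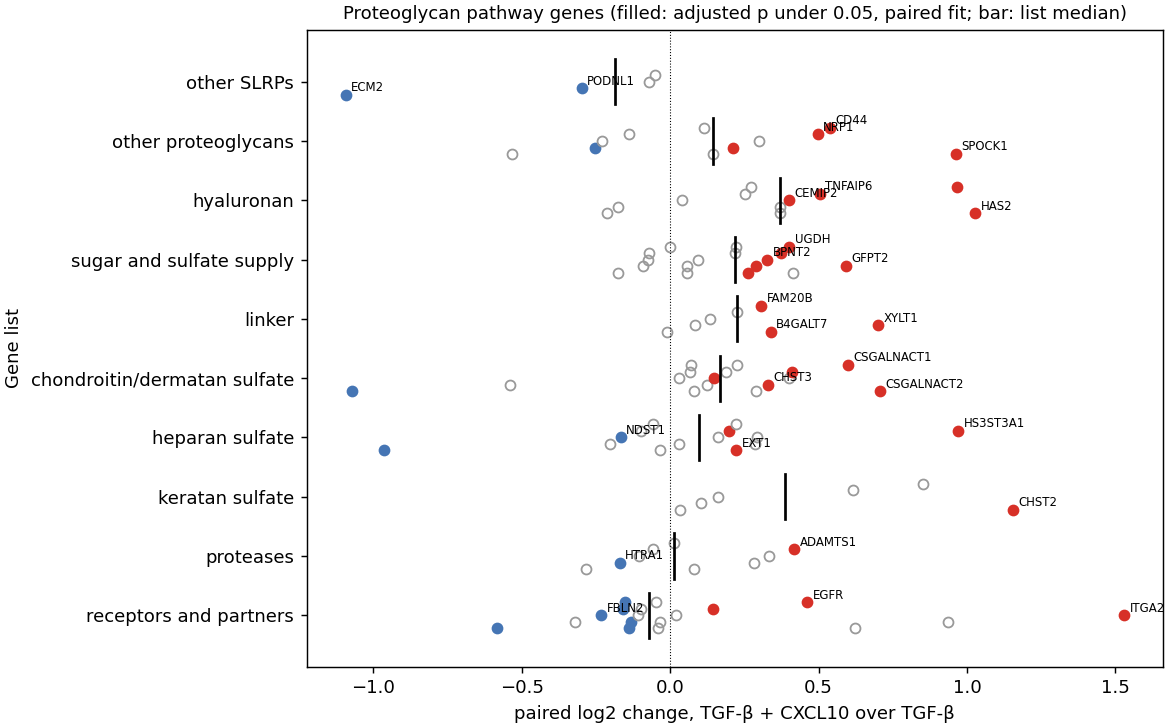
Paired log2 change (x axis) of each tested gene of 10 proteoglycan pathway lists (y axis), with filled points for genes past the threshold in the paired fit, red higher and blue lower, open points for the rest and a black bar at the list median. Over all lists 30 genes were called higher and 13 lower, where the same fit called 9.71% of all genes tested higher and 8.04% lower. The list medians run from -0.19 for the other small leucine-rich genes to 0.39 for the 6 tested keratan sulfate genes.

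Of 9 tested proteases that cut these cores 1 rose and 1 fell (median 0.01), beside 9.71% and 8.04% of all genes. ADAMTS1, a versican- and aggrecan-cleaving protease, rose by 0.42 (SE 0.07), from 77.9 ± 6.80 CPM to 105 ± 25.4 CPM. CXCL10 replicate 1 was the highest, at 134 CPM, against 95.5 and 86.3 CPM in its group. The groups did not overlap, but TGF-β replicate 1, at 85.7 CPM, came close to the lowest of these. HTRA1, a secreted serine protease that degrades decorin and biglycan, was lower by a log2 change of -0.17 (adjusted p = 0.0328), with overlapping groups. MMP2, with a mean of 2311 ± 141 CPM and 2147 ± 115 CPM, was at -0.11 (adjusted p = 0.0811). Of 18 receptors and binding partners 3 rose and 6 fell (median -0.07). ITGA2, the collagen receptor subunit that also binds perlecan fragments and decorin, rose by 1.53 (SE 0.14), and EGFR, a decorin receptor, by 0.46 (SE 0.05). MET, another receptor of this list, went the other way, at -0.58 (SE 0.15, adjusted p = 0.0161). Its groups did not overlap, at 11.4 ± 1.66 CPM and 7.57 ± 1.03 CPM, and it was named after its value was seen. FBLN2, a fibulin that binds versican and aggrecan, fell from 1040 ± 112 to 883 ± 62.2 CPM (paired log2 change of -0.23, SE 0.05, adjusted p = 0.00319). Its groups overlapped. In TGF-β replicate 1 ITGA2 was at 465 CPM, against 133 and 132 in its group and 469 in the lowest CXCL10 library.

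The deposited files give a second readout for some cores. The ratio of a gene's count to its FPKM, divided by the library total, gives the transcript length that the FPKM implies, and it varied by over 1% between libraries for 3 of the 7 tested cores: DCN, VCAN and HSPG2. For VCAN it was 9.85, 9.93 and 10.04 kb in the TGF-β libraries and 9.59, 9.73 and 9.81 kb in the CXCL10 libraries. For HSPG2 it was 14.0, 13.9 and 14.1 kb and then 13.7, 13.8 and 13.4 kb. In both genes the CXCL10 libraries were all below the TGF-β libraries, by a small amount, while DCN overlapped, at 1.57 to 1.63 kb and 1.53 to 1.63 kb. Such a separation was found for 10.9% of the 7793 genes with a varying implied length. How the authors set these lengths is not given in the sources used here, so no isoform can be named from them.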

How the data were processed

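Per the labels' protocols, RNeasy-extracted RNA went into SMARTer mRNA-seq libraries. Builds GRCm38 and mm10, listed in the submitters' processing notes, conflict with the human gene rows. The aligner was not given in the sources used here, nor was the counter. Per the file headers the deposited table holds raw counts, FPKM values per library and the authors' mean FPKM, their log2 ratio, and their p-value with its adjusted p. No human annotation or sequence was used, so no coordinates or sequences are printed.

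The main test was edgeR 4.0.16 under R 4.3.3, run on the counts (quasi-likelihood, TMM scaling, filterByExpr at a count of at least 10 and a summed count of at least 15, Benjamini-Hochberg over 11970 genes, threshold 0.05). The principal fit had no block, and an alternative had the replicate number as a block. Standard errors are the size of the log2 change over the square root of the F statistic. Alternatives used DESeq2 1.42.0 and limma 3.58.1, the latter also on log2(FPKM + 1). Both edgeR fits were tested on simulated data. The data simulated for the unpaired fit held no shift of replicate 1, so that fit was not tested under such a shift. A prior count of 2 was used for log2 CPM. Replicate numbers come from the titles. Across genes, libraries with the same number deviated together from their group means (correlations of 0.330, 0.121 and 0.163, each over the limit of 0.1). Paired values are therefore given. Unlike-numbered libraries of replicates 2 and 3 also correlated, at 0.082 and 0.080, just under that limit. The check thus hardly sets pair 2 apart from pair 3, and it used the same values that the paired fit tests. The pairing rests on the data, mainly on replicate 1. The labels do not say whether replicates were separate cultures, so p-values may measure technical spread only.

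The members, gene lists and tests were chosen with earlier results of these data known. Genes named are the 10 cores, up to 3 per list with the lowest paired p and a mean of at least 5 CPM, and the 2 genes nearest to each tested core. CEMIP, CSPG4, UST, CHST1, CHST6, B4GALT1 and MET fall outside this rule and were named after their values were seen. The marker genes named are those of the fixed lists. Intervals and detection limits cover counting error or library spread only, and a library with 0 counts allows 3 counts.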

Additional observations from a re-analysis of the deposited data

How the results depend on the processing

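All 7 tested cores kept their direction in each of 22 alternatives. AGRN passed in 0 of them, and DCN, LUM and VCAN in 8, 11 and 11. Most of these passes came with the replicate block. Without it, LUM and VCAN passed only in DESeq2 and without TGF-β replicate 1, and DCN only in the latter. Limma-voom and limma-trend without the block called 0 genes. So did edgeR without the block under RLE scaling, library totals, no filter on low counts and a mean of at least 5 CPM. The edgeR fit with the replicate block gave 1162 higher and 962 lower genes, of which 30 and 13 were pathway list genes, with changes of -0.25 for DCN, -0.32 for LUM and 0.47 for VCAN. The block changed no other core's call. DESeq2 without the block gave 172 and 163 genes, 8 list genes higher, LUM at -0.32 and VCAN at 0.46. DESeq2 with the block gave 684 and 454 genes, 23 and 5 list genes, and -0.24, -0.32 and 0.47 for DCN, LUM and VCAN. Settings with the block that were chosen after seeing the data follow. Library totals gave 877 and 1359 genes, 26 and 18 list genes, and -0.29, -0.36 and 0.43, with FMOD at -0.36 and HSPG2 at -0.14 also called. A mean of at least 5 CPM gave 1174 and 1031 genes, 31 and 11 list genes, and -0.25, -0.33 and 0.46. Limma-voom gave 1149 and 959 genes, 30 and 14 list genes, and -0.25, -0.32 and 0.46. Limma-trend on log2(FPKM + 1) gave 337 and 352 genes, 10 and 2 list genes, LUM at -0.36 and VCAN at 0.45.

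Leaving out 1 library at a time without the block gave 0 to 1302 genes higher, 0 to 1046 lower, 0 to 33 list genes higher and 0 to 13 lower, and all calls came without TGF-β replicate 1. The changes ranged from -0.30 to -0.20 for DCN, -0.38 to -0.28 for LUM, 0.083 to 0.58 for BGN, 0.35 to 0.64 for VCAN, -0.49 to -0.17 for FMOD, -0.16 to -0.02 for HSPG2 and 0.05 to 0.14 for AGRN. With the block, leaving out both libraries of replicate 1, 2 or 3 gave 1533, 680 and 539 genes higher, 1313, 561 and 365 lower, and 20 to 35 and 1 to 18 list genes. DCN was then at -0.30, -0.23 and -0.20, LUM at -0.35, -0.29 and -0.32, and VCAN at 0.55, 0.41 and 0.45. BGN was at 0.54, 0.12 and 0.37, and AGRN at 0.08, 0.03 and 0.16. Where calls changed, the cause was not tested. By CPM, which ignores length, HSPG2 and not LUM or DCN was the highest core in every library. Depth limits what can be said of ACAN, ASPN and PRELP.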
